A study of Homo sapiens with 16 samples.

Results

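The nuclear genes of oxidative phosphorylation were followed by complex in the human promyelocytic leukaemia line HL60 after inhibition of the transcription kinase CDK7. Members were chosen by symbol alone: the subunit families NDUFA, NDUFB, NDUFC, NDUFS and NDUFV of complex I (without the NDUFAF assembly factors), SDHA to SDHD of complex II, UQCR genes and CYC1 of complex III, COX4 to COX8 of complex IV, and ATP5F, ATP5M and ATP5P of complex V. Of 18080 genes with a row of their own in the count table, 83 met the rule: 33 of complex I, 4 of complex II, 10 of complex III, 16 of complex IV, 18 of complex V and 2 read-through genes. A further 5 genes that the rule covers (COX8C, NDUFA3, NDUFA6, NDUFS1 and NDUFS3) were not analysed here.

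Oxidative phosphorylation is carried out by 5 complexes of the inner mitochondrial membrane. Complex I (NADH dehydrogenase) and complex II (succinate dehydrogenase) feed electrons into ubiquinone, complex III passes them to cytochrome c, and complex IV (cytochrome c oxidase) reduces oxygen. The proton gradient that complexes I, III and IV build drives complex V, the ATP synthase. Most subunits are encoded in the nucleus. A small set that holds most of the redox centres and nucleotide sites is called catalytic here, and all other subunits are called accessory. The accessory class thus also holds the membrane anchors of complex II and the c ring and central stalk of complex V, which take part in the work of their complexes. The catalytic core of complex IV is encoded in mitochondrial DNA, so the nuclear members of complex IV are all accessory.

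The cells were grown with serum and treated for 5 h with 50 nM SY-351, a CDK7 inhibitor, or with DMSO, the solvent, and steady-state polyadenylated RNA was sequenced. Both groups are the same wild-type line, so that the treatment is the only labelled difference. Each group had 4 numbered replicates with 2 technical repeats each, 16 records behind 8 count columns. Nothing in the labels says that the replicates were separate cultures, so all p-values here speak of the spread among these libraries alone, and that spread may be technical. The study examined the role of CDK7 in transcription, splicing and termination.

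Libraries held 43.3 to 124.2 M counts assigned to genes, at which 3 counts equal 0.0241 to 0.0693 CPM. CPM scale the counts of a library to its assigned total and carry no further scaling. They are shares of a library, so a change in the total RNA of a cell is not seen in them, and fewer cells and less RNA per cell cannot be told apart. Log2 folds come from edgeR after TMM scaling, which aligns libraries on the bulk of genes, and so are not the ratio of the printed CPM. DMSO replicates 1 and 2 stood apart from the other 6 libraries also among the members. Across members, which are genes and not replicates, Pearson's r of log2 CPM was 0.989 for the pair DMSO 1 and 2, and 0.997 for the pair DMSO 3 and 4. Across the 2 pairs it was 0.424 to 0.447. With the SY-351 libraries DMSO 1 and 2 had r of 0.362 to 0.402, and DMSO 3 and 4 had r of 0.95 to 0.957. Calls and medians are therefore given with all 8 libraries and again without DMSO 1 and 2, which leaves 2 controls. In that smaller fit with TMM scaling, edgeR gave nearly the same SE to most members printed. Its p-values there rest on a spread pooled over genes more than on the spread of each gene. Very small p-values from that fit therefore do not measure how well 2 controls agree for a gene. Markers of promyelocytes were high: the 7 of 11 with a row, led by MPO, summed to 24506 to 32597 CPM under DMSO and 39290 to 42766 CPM with SY-351. Markers of other cell types summed to at most 49.2 CPM, over 17 genes of which 5 reached a mean of 1 CPM.

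Taken over all 8 libraries, few members passed the test. Of 79 members tested, 5 were higher with SY-351 and 3 were lower at a Benjamini-Hochberg adjusted p below 0.05 in edgeR's quasi-likelihood test. Among all 15472 genes tested, 2.91% were higher and 13.6% were lower. The median log2 fold of the 79 members was 0.82, against 0.00 for all genes tested. When DMSO 1 and 2 were left out, 60 of 79 members were higher and 4 were lower, where 21.9% of 15811 genes were higher and 26.4% lower, and the median was 0.89 against 0.01 for all genes. Scaling these 6 libraries by total count alone moved the median of all genes to -0.45 and of members to 0.46, which is 0.91 above all genes. That scaling called 50 members higher and 14 lower, where 13.1% of all genes were higher and 43.3% lower. DESeq2 on all 8 libraries called 11 members higher and 8 lower, where 8.9% of all genes were higher and 24.6% lower. Leaving out 1 library of the 8 changed the 5 higher calls to 2 (without DMSO 1 or any 1 SY-351 library), 3 (without DMSO 2) or 8 (without DMSO 3 or 4). The 3 lower calls became 0 without any 1 SY-351 library, 1 without DMSO 1 or DMSO 2, and 8 without DMSO 3. Calls among all genes moved in the same fits. Without any 1 SY-351 library 0.39 to 0.48% of all genes were higher and 2.99 to 3.83% lower. Without DMSO 1, 2, 3 or 4 in turn, 1.26, 1.58, 12.3 and 4.33% were higher. In the same order 8.14, 9.38, 22.4 and 16.1% of all genes were lower.

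**Figure D1:**
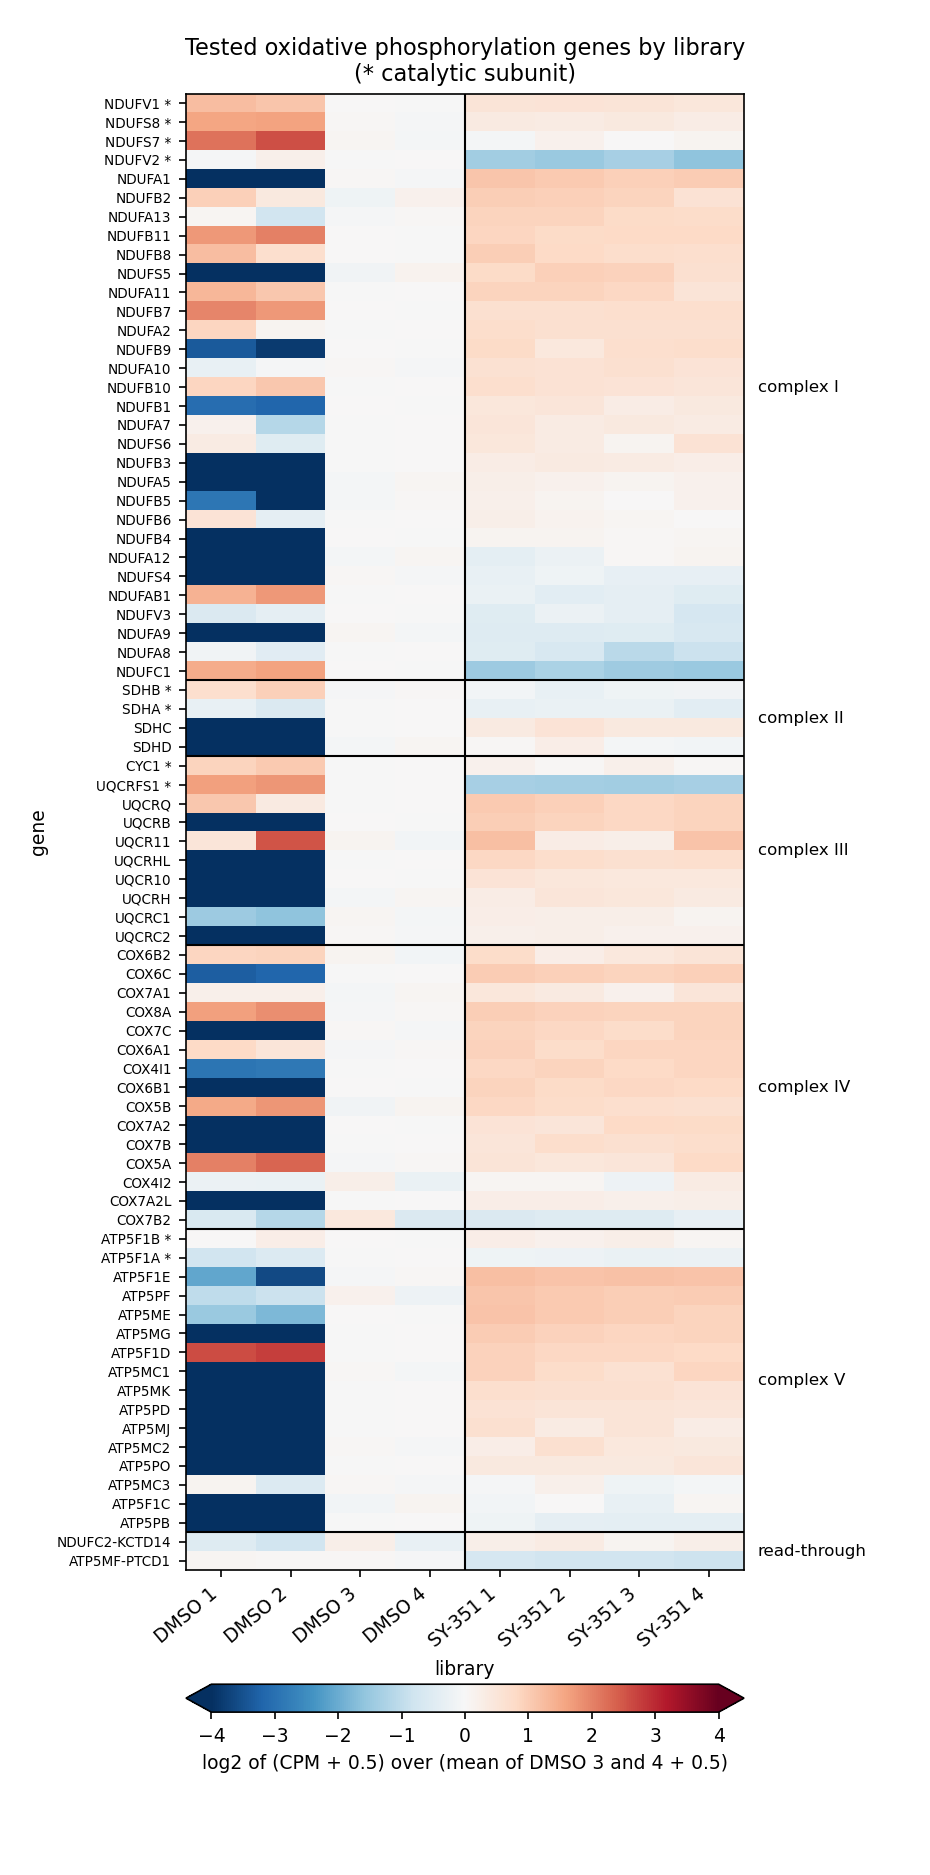
Level of each of 78 tested members (rows, grouped by complex, asterisk for catalytic) in each of the 8 libraries (columns), as log2 of CPM + 0.5 over the mean of DMSO 3 and 4 + 0.5, with colours cut at 4 in either direction. DMSO 1 and 2 are far below DMSO 3 and 4 for many accessory subunits and above them for others, while the 4 SY-351 libraries resemble each other.

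The 5 members that rose over all 8 libraries are accessory subunits of complexes IV and V. COX4I1, the ubiquitous form of the subunit that responds to ATP in complex IV (chromosome 16, 85799694 to 85807054, GRCh38), measured 25.7, 26.6, 195 and 198 CPM in DMSO replicates 1 to 4 and 349, 363, 338 and 356 CPM in SY-351 replicates 1 to 4. By edgeR its log2 fold was 1.88 (SE 0.52, adjusted p = 0.0423) and 1.26 (SE 0.17) without DMSO 1 and 2. COX6C, a small membrane subunit of complex IV, measured 8.25, 8.93, 85.1 and 85.2 CPM under DMSO and 174, 167, 157 and 166 CPM with SY-351, which edgeR put at a log2 fold of 2.09 (SE 0.60, adjusted p = 0.0472) and 1.39 (SE 0.17) without DMSO 1 and 2. For both genes all SY-351 values lay above all DMSO values, and the controls fell into 2 levels of which DMSO 1 and 2 held the lower.

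ATP5F1E, the epsilon subunit of the rotor stalk (chromosome 20, 59025474 to 59032335), measured 23.6, 7.73, 98.1 and 103 CPM under DMSO and 231, 221, 225 and 221 CPM with SY-351. ATP5ME, the e subunit of the membrane part that takes part in pairing ATP synthases (chromosome 4, 672435 to 674276), measured 27.0, 21.5, 77.2 and 76.1 CPM under DMSO and 171, 157, 152 and 144 CPM with SY-351. ATP5PF, coupling factor 6 of the outer stalk (chromosome 21, 25724479 to 25735654), measured 51.5, 57.7, 119 and 90.8 CPM under DMSO and 227, 216, 209 and 215 CPM with SY-351. In each of the 3 genes the SY-351 libraries lay close together and above every control. Their log2 folds were 2.15 (SE 0.55, adjusted p = 0.0337, edgeR), 1.70 (SE 0.29, adjusted p = 0.00835) and 1.40 (SE 0.24, adjusted p = 0.00867). Without DMSO 1 and 2 they were 1.58, 1.45 and 1.5, each with an SE of 0.17. The rows of ATP5F1E and ATP5PF overlap a gene on the other strand, TUBB1 over 1181 bp and GABPA over 684 bp. TUBB1 measured at most 1.68 CPM in any library, and GABPA measured 43.4 to 55.0 CPM under DMSO and 34.6 to 38.6 CPM with SY-351.

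The 3 members that fell over all 8 libraries were 2 catalytic subunits and 1 accessory subunit. NDUFV2, an iron-sulfur subunit of the NADH-binding arm of complex I (chromosome 18, 9102698 to 9134340), measured 122, 146, 126 and 128 CPM under DMSO and 47.6, 45.5, 50.6 and 41.7 CPM with SY-351. In CPM its 4 controls lay close together. The TMM factors of DMSO 1 to 4 were 0.66, 0.66, 1.61 and 1.21, so on the scale of the fold DMSO 1 and 2 were the higher pair. By edgeR the log2 fold of NDUFV2 was -1.74 (SE 0.37, adjusted p = 0.0186) and -1.03 (SE 0.16) without DMSO 1 and 2. UQCRFS1, the Rieske iron-sulfur protein of complex III (chromosome 19, 29205319 to 29213151), measured 134, 149, 42.8 and 43.3 CPM under DMSO and 16.7, 16.5, 16.2 and 17.0 CPM with SY-351. NDUFC1, a membrane subunit of complex I (chromosome 4, 139289930 to 139302477), measured 128, 139, 45.7 and 45.5 CPM under DMSO and 16.4, 18.6, 16.9 and 15.9 CPM with SY-351. In both genes every SY-351 library lay below every control, and the controls were split with DMSO 1 and 2 on the higher side. The log2 folds were -2.95 (SE 0.73, adjusted p = 0.0299, edgeR) and -2.86 (SE 0.69, adjusted p = 0.0276), and -0.95 and -1 (SE 0.15 each) without DMSO 1 and 2. The row of NDUFC1 overlaps NAA15 on the other strand over 974 bp, and NAA15 measured 35.9, 43.0, 146 and 145 CPM under DMSO and 28.3 to 32.5 CPM with SY-351, so it was lower too.

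**Figure D2:**
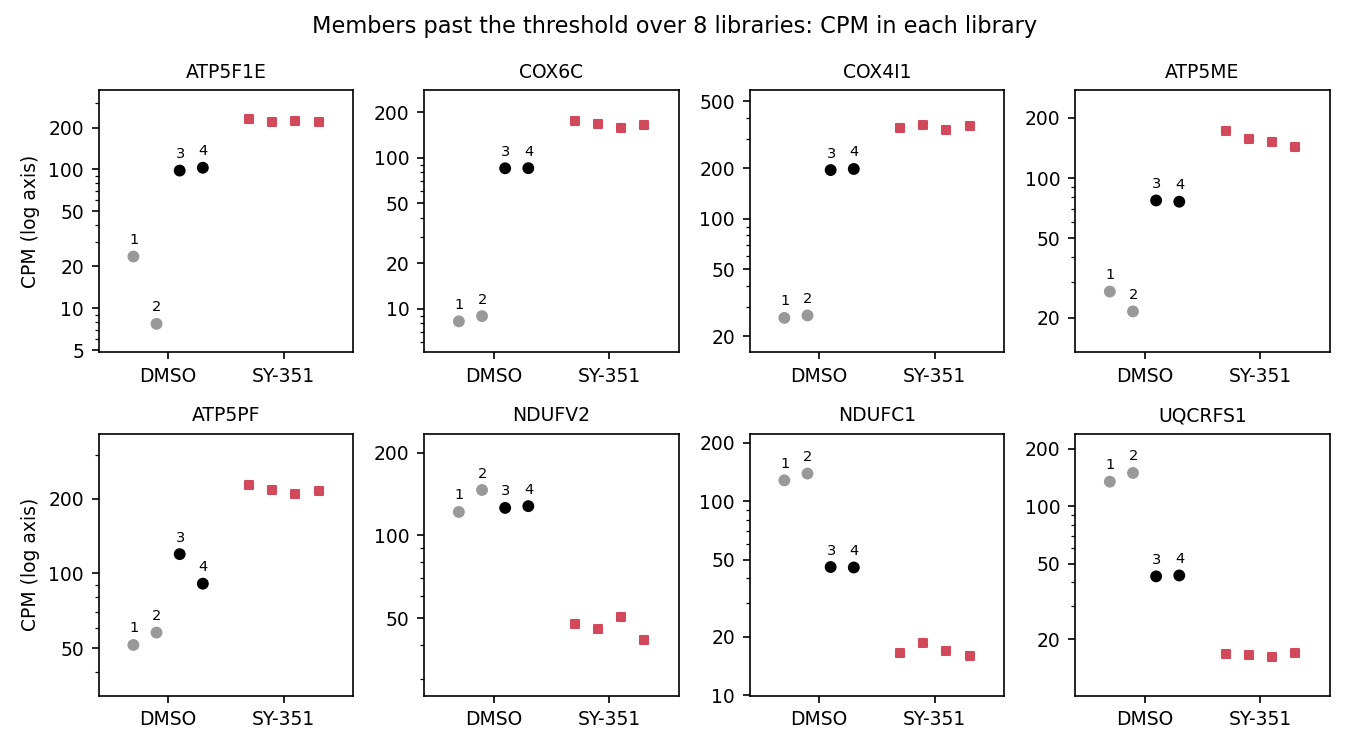
CPM (log axis) in each library of the 8 members past the threshold over all 8 libraries, with DMSO replicates numbered (grey for 1 and 2, black for 3 and 4) and SY-351 libraries as red squares. In every panel the 4 SY-351 libraries lie outside the range of the 4 controls.

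Promoter windows of 7 of these members are shown, first those that rose and then those that fell, and COX6C is not shown. Each line runs 5′ to 3′ from 70 bases before to 20 bases from the transcription start of RefSeq (GRCh38.p14), which can differ from the start of the counted transcript. Capitals mark CCGGAAG, the core bound by ETS factors such as GABPA, and AAGATGGCG, the core bound by YY1, on either strand.
ATP5F1E, chr20:59032316-59032405, minus strand: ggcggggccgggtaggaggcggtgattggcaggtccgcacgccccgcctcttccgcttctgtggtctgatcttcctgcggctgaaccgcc
COX4I1, chr16:85799625-85799714, plus strand: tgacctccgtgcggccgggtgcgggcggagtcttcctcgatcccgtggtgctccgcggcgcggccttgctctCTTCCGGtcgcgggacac
ATP5ME, chr4:674257-674346, minus strand: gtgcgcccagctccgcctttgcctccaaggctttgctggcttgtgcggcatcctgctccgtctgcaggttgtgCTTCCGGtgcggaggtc
ATP5PF, chr21:25735035-25735124, minus strand: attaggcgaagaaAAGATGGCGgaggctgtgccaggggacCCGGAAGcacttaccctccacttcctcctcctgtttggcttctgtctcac
NDUFV2, chr18:9102629-9102718, plus strand: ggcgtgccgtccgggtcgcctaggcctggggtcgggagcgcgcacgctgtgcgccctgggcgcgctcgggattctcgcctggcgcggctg
NDUFC1, chr4:139302532-139302621, minus strand: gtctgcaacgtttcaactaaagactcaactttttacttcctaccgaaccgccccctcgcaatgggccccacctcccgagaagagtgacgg
UQCRFS1, chr19:29213132-29213221, minus strand: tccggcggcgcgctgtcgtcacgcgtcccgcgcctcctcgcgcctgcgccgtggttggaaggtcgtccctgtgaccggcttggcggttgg
The ETS core stood in 3 of the 4 windows of members that rose, in ATP5PF 30 bases before the start together with the YY1 core 57 bases before it, in COX4I1 from base 3 and in ATP5ME from base 4. These letters were in none of the 3 windows of members that fell. How often they stand in windows this short was not counted for other genes. The 7 windows were chosen by their calls and are too few for a comparison.

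Over the longer RefSeq promoters (250 bases before to 50 from the start), 64 members had an entry. Both strands were searched for 5 motifs. CCGGAAG was found in 18 of 64 member promoters (28.1%) and in 14.6% of the 14393 promoters of genes in the count table. AAGATGGCG was found in 7 (10.9%, against 2.93% of all), and GCGCATGC, part of the NRF1 motif, in 12 (18.8%, against 4.34%). The 8 letters were taken after a longer form had been counted, the same letters followed by GC, which stood in 4 member promoters (6.25%, against 1.86%). The CCAAT box (CCAAT, 35.9% against 36.5%) and the GC box (GGGCGG, 59.4% against 59.8%) stood at the share of all promoters. Members with CCGGAAG had a median log2 fold of 1.25 (18 genes, 0.24 to 1.5) without DMSO 1 and 2, and the 45 tested members whose promoter lacked these letters had a median of 0.78 (-1.03 to 1.59). With all libraries the medians were 1.41 and 0.39, and the same split of all genes was not made. These are descriptions of the letters in the windows, and no binding was measured.

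By complex, the median fold of the nuclear subunits was highest in complex IV and lowest in complex II when DMSO 1 and 2 were left out. The median log2 fold was 1.26 in complex IV (13 of 15 tested members higher, 0 lower), 0.92 in complex V (13 of 16 higher, 0 lower), 0.85 in complex III (9 of 10 higher, 1 lower), 0.79 in complex I (23 of 32 higher, 3 lower) and 0.34 in complex II (2 of 4 higher, 0 lower). Relative to the median of all genes, total count scaling of the same 6 libraries gave 1.28, 0.95, 0.88, 0.82 and 0.38 in that order. A change of scaling moves the folds of all genes by nearly the same amount, so this is no test of the order. The differences between complexes are medians over few genes and carry no test. With all 8 libraries the medians were 1.31, 1.74, 1.22, 0.08 and 0.58 for complexes IV, V, III, I and II, so complex V was highest and complex I lowest. In that fit 2 members of complex IV and 3 of complex V were higher, and 2 of complex I (6.25%) and 1 of complex III (10%) lower. Of all genes 2.91% were higher and 13.6% lower there, so neither complex had more lower calls than all genes. Without DMSO 1 and 2 the shares of all genes were 21.9% higher and 26.4% lower. In complexes II, IV and V edgeR with TMM scaling called 0 members lower with all libraries or without DMSO 1 and 2. At an unadjusted p below 0.05 it had 0 lower in both fits. DESeq2 over all libraries called 0 lower, with 1 in each at an unadjusted p below 0.05. Against DMSO 1 and 2 as the only controls, edgeR with TMM scaling called 2 of 4, 5 of 15 and 4 of 16 lower in complexes II, IV and V. Of all genes 38.4% were lower there. Total count scaling without DMSO 1 and 2 called 2 of 4 lower in complex II, 0 of 15 in complex IV and 2 of 16 in complex V, where 43.3% of all genes were lower.

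**Figure D3:**
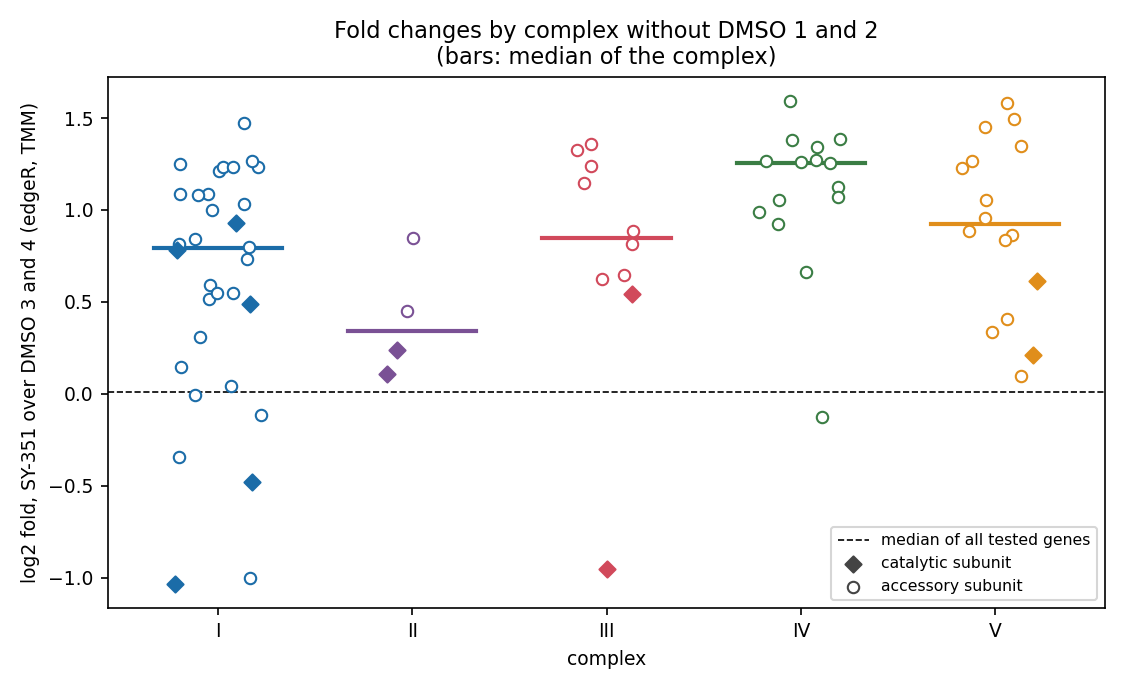
Log2 fold (SY-351 over DMSO 3 and 4, edgeR with TMM) of each tested member by complex, filled diamonds for catalytic and open circles for accessory subunits, a bar at the median of each complex and a dashed line at the median of all genes. The catalytic subunits of complexes II, III and V lie below the median of their complex, and NDUFV2 and UQCRFS1 lie near -1.

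In plain CPM the summed nuclear transcripts of complex IV were 1381 and 1436 CPM for DMSO 3 and 4, against 2308 to 2406 CPM in the SY-351 libraries. Complex III summed to 1241 and 1208 CPM for DMSO 3 and 4, against 1540 to 1688 CPM with SY-351, and complex V to 3601 and 3545 CPM against 4268 to 4553 CPM. Complex I summed to 2713 and 2739 CPM against 3451 to 3711 CPM. For these 4 complexes every SY-351 library lay above DMSO 3 and 4. DMSO 1 and 2 held 4074 and 4005 CPM of complex I, above every SY-351 library, 1820 and 2097 CPM of complex IV, 803 and 1184 CPM of complex III, and 2835 and 3133 CPM of complex V. Complex II summed to 325 and 341 CPM for DMSO 3 and 4, against 311 to 330 CPM with SY-351, so the groups overlapped. All 83 members together took 0.934% of the counts in DMSO 3 and in DMSO 4 alike, 0.988% and 1.08% in DMSO 1 and 2, and 1.21 to 1.27% with SY-351.

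In complex I the catalytic subunits did not move together. NDUFV1, which binds NADH and flavin, measured 595, 546, 251 and 251 CPM under DMSO and 360.0, 365, 359.8 and 342 CPM with SY-351, between the 2 pairs of controls. By edgeR its log2 fold was -0.62 (SE 0.60, adjusted p = 0.506) with all libraries and 0.93 (SE 0.17, adjusted p = 1.2e-07) without DMSO 1 and 2. NDUFS8, an iron-sulfur subunit, measured 266, 272, 90.2 and 85.9 CPM under DMSO and 114, 112, 117 and 108 CPM with SY-351, and likewise lay between the pairs. NDUFS7, which carries the last iron-sulfur cluster before ubiquinone, measured 432, 578, 100.4 and 91.4 CPM under DMSO and 91.4, 108, 97.1 and 103 CPM with SY-351. It overlapped DMSO 3 and 4 and was far below DMSO 1 and 2. Without DMSO 1 and 2, NDUFS8 and NDUFS7 were higher (log2 folds 0.78 and 0.49), and with them their folds were -1.13 and -2.13 (adjusted p = 0.284 and 0.127, edgeR). On total counts the fold of NDUFS7 was 0.06 (adjusted p = 0.556, edgeR).

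Among the 27 tested accessory subunits of complex I, 20 were higher and 1 was lower without DMSO 1 and 2. NDUFA1, a small membrane subunit needed for assembly, had the highest fold of the complex. It measured 2.20, 2.05, 59.7 and 55.2 CPM under DMSO and 123, 119, 113 and 118 CPM with SY-351, which edgeR put at a log2 fold of 1.48 (SE 0.17, adjusted p = 1.3e-16, edgeR) without DMSO 1 and 2 and of 2.34 (SE 0.88, adjusted p = 0.107) with them. Its SY-351 values were above every control, and DMSO 1 and 2 were nearly without it. Of the accessory subunits, 6 were not past the threshold: NDUFA12, NDUFS4, NDUFAB1 (the mitochondrial acyl carrier protein), NDUFV3, NDUFA9 and NDUFA8, with log2 folds from -0.34 to 0.31. On total counts 5 of these had negative folds past the threshold, from -0.76 to -0.28, and NDUFA12 had -0.11.

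In complex II the calls for the catalytic subunits depended on the scaling, and the membrane anchors were higher without DMSO 1 and 2. SDHA, the flavoprotein that oxidises succinate, measured 88.2, 73.4, 108 and 109.7 CPM under DMSO and 89.2, 89.7, 90.9 and 80.6 CPM with SY-351, within the range of the controls. SDHB, the iron-sulfur subunit, measured 181, 220.0, 109 and 115 CPM under DMSO and 103, 90.5, 99.6 and 103 CPM with SY-351, below all controls but near DMSO 3. Against DMSO 3 and 4 alone their log2 folds were 0.11 (SE 0.16, adjusted p = 0.643, edgeR) and 0.24 (SE 0.16, adjusted p = 0.237), and on total counts -0.31 and -0.18 (adjusted p = 0.00106 and 0.0349), so the sign changed and both passed as lower. With all libraries they were -0.27 and -1.02 (adjusted p = 0.538 and 0.216, edgeR). SDHC measured 1.02, 0.868, 60.2 and 61.9 CPM under DMSO and 78.1, 88.8, 80.3 and 81.0 CPM with SY-351. SDHD measured 0.0839, 0.0289, 47.3 and 53.6 CPM under DMSO and 52.4, 61.0, 47.6 and 46.4 CPM with SY-351. SDHC was thus above all controls, whereas SDHD overlapped DMSO 3 and 4, and both were near 0 in DMSO 1 and 2. Their log2 folds without DMSO 1 and 2 were 0.85 (SE 0.17) and 0.45 (SE 0.16), and 0.43 and 0.04 on total counts, where SDHD did not pass (adjusted p = 0.773, edgeR). With all libraries neither anchor passed (adjusted p = 0.295 and 0.558). The row of SDHC overlaps CFAP126 on the other strand over 3154 bp.

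In complex III the Rieske protein fell in both fits, and the other 9 members passed as higher without DMSO 1 and 2, whereas 0 of 10 did so with all libraries. CYC1, cytochrome c1, measured 363, 402, 191 and 196 CPM under DMSO and 220.4, 199, 224 and 201 CPM with SY-351, just above DMSO 3 and 4 and below DMSO 1 and 2. By edgeR its log2 fold was 0.54 (SE 0.16, adjusted p = 0.00225) without DMSO 1 and 2, and 0.12 (adjusted p = 0.117) on total counts. All 8 accessory subunits were higher without DMSO 1 and 2, with log2 folds from 0.63 to 1.36. UQCRQ, a small membrane subunit, had the highest, and measured 103, 62.8, 48.4 and 49.3 CPM under DMSO and 101, 94.3, 88.0 and 90.3 CPM with SY-351. UQCRB measured 0.373, 0.0482, 111 and 107 CPM under DMSO and 216, 201, 192 and 204 CPM with SY-351. UQCRQ thus reached the level of DMSO 1, whereas UQCRB was near 0 there and its SY-351 values were well above DMSO 3 and 4. UQCRH, the hinge protein, measured 2.04, 1.07, 142 and 156 CPM under DMSO and 185, 207, 202 and 193 CPM with SY-351, and UQCRHL 0.233, 0.00965, 52.0 and 54.0 CPM and 94.7, 87.1, 83.8 and 85.4 CPM. UQCRH and UQCRHL are near-identical copies, so the division of reads between them is uncertain. UQCR11 was uneven within SY-351, at 199.9, 106, 101 and 193 CPM, against 123, 501, 93.2 and 80.6 CPM in DMSO.

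In complex IV the 11 well detected members all rose when DMSO 1 and 2 were left out, with log2 folds from 0.66 to 1.39. COX8A, a small membrane subunit, measured 466, 545, 144 and 156 CPM under DMSO and 297, 284, 281 and 280.2 CPM with SY-351, between the control pairs. COX7C measured 0.503, 0.174, 97 and 92.2 CPM under DMSO and 176, 168, 159 and 174 CPM with SY-351. COX5A measured 686, 856, 163 and 174 CPM under DMSO and 243, 231, 235 and 293 CPM with SY-351. These 3 genes rose alike against DMSO 3 and 4, with log2 folds of 1.34, 1.27 and 0.99, but against all 4 controls their folds were -0.68, 2.24 and -1.43, none past the threshold. COX7A2L, which takes part in joining complexes III and IV, had the lowest fold of the members above 10 CPM, 0.66 (SE 0.16, adjusted p = 0.000188, edgeR) without DMSO 1 and 2, and 1.59 (adjusted p = 0.335) with them.

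Complex IV subunits come in tissue isoforms, and in DMSO 3 and 4 and with SY-351 the ubiquitous form was the higher of each pair. Per kilobase of spliced transcript, the mean with SY-351 was 496 CPM for COX4I1 and 0.238 for COX4I2 (the lung form), 440.1 for COX6A1 and 0.0978 for COX6A2 (the heart and muscle form), and 322 for COX6B1 and 0.353 for COX6B2 (the testis form). It was 158 for COX7A2 and 0.542 for COX7A1 (the heart and muscle form), and 379 for COX7B and 2.45 for COX7B2. In DMSO 3 and 4 the ubiquitous forms measured 278, 245, 182, 101 and 244 CPM per kilobase and the other forms 0.181, 0.103, 0.161, 0.274 and 3.81 in the same order. In DMSO 1 and 2 the order turned in a pair of cases. COX7B2 measured 2.20 CPM per kilobase in DMSO 1, where COX7B measured 0.481, and COX7A1 measured 0.418 in DMSO 2, where COX7A2 measured 0.0125. Of the ubiquitous forms, COX6A1 measured 242, 196, 136 and 144 CPM under DMSO and 267, 232, 254 and 254 CPM with SY-351. COX6B1 measured 1.73, 0.820, 124 and 119 CPM under DMSO and 225, 208, 217 and 211 CPM with SY-351. COX7A2 measured 0.708, 0.00965, 77.8 and 77.8 CPM under DMSO and 113, 108, 134 and 132 CPM with SY-351. COX6A1 was thus well detected in DMSO 1 and 2, whereas COX6B1 and COX7A2 were near 0 there. COX7B, with 0.214, 0.569, 107 and 111 CPM under DMSO and 152, 176, 170.2 and 178 CPM with SY-351, behaved like the latter. The tissue forms stayed below 3 CPM in every library: COX6B2 measured 0.886, 0.926, 0.322 and 0.214 CPM under DMSO and 0.424 to 0.783 CPM with SY-351, and COX7A1 0.169 to 0.318 CPM and 0.293 to 0.485 CPM. COX7B2 measured 0.656 to 2.91 CPM under DMSO and 1.21 to 1.53 CPM with SY-351, and COX6A2 at most 0.0932 CPM in any library. COX6B2 and COX7A1 had folds past the threshold without DMSO 1 and 2 (1.59 and 1.38) but not on total counts (adjusted p = 0.0789 and 0.144, edgeR). With SY-351 COX6B2 lay below DMSO 1 and 2 and above DMSO 3 and 4, and COX7A1 overlapped its controls. With all libraries neither passed (adjusted p = 0.692 and 0.670, edgeR).

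COXFA4, formerly NDUFA4, is a complex IV subunit that does not meet the rule by its current symbol. It measured 0.587, 0.260, 67.6 and 82.5 CPM under DMSO and 124 to 168 CPM with SY-351, which edgeR put at a log2 fold of 1.31 (SE 0.17) without DMSO 1 and 2 and 2.28 (adjusted p = 0.281) with them. Without DMSO 1 and 2 its unadjusted p in edgeR was 1.3e-14 with TMM scaling and 0.00022 on total counts, so its size depended on the scaling.

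In complex V neither catalytic head subunit passed with all libraries, and the beta subunit was higher without DMSO 1 and 2. ATP5F1B, the beta subunit that makes ATP, measured 952, 1148, 967 and 928 CPM under DMSO and 1143, 1071, 1105 and 1000 CPM with SY-351. ATP5F1A, the alpha subunit, measured 522, 615, 881 and 899.7 CPM under DMSO and 796, 777, 743 and 763 CPM with SY-351. Both groups overlapped in ATP5F1B, and the SY-351 values of ATP5F1A lay between the control pairs. Their log2 folds were -0.14 (SE 0.44, adjusted p = 0.847, edgeR) and -0.03 (SE 0.33, adjusted p = 0.954) with all libraries. Against DMSO 3 and 4 alone they were 0.62 (SE 0.17, adjusted p = 0.000909) and 0.21 (SE 0.17, adjusted p = 0.315), and on total counts 0.19 and -0.21, so the sign for ATP5F1A changed with the scaling and it passed as lower (adjusted p = 0.00137, edgeR).

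Among the 14 tested accessory subunits of complex V, 12 were higher and 0 were lower without DMSO 1 and 2. ATP5F1C, the gamma subunit of the central stalk, and ATP5PB, the b subunit of the outer stalk, did not pass, with log2 folds of 0.34 and 0.10 that turned to -0.07 (adjusted p = 0.577, edgeR) and -0.33 on total counts, where ATP5PB passed as lower (adjusted p = 0.00136). ATP5MG, the g subunit, measured 2.86, 2.29, 137 and 140.4 CPM under DMSO and 278, 263, 252 and 259.6 CPM with SY-351. ATP5F1D, the delta subunit of the central stalk, measured 1018, 1129, 164 and 166 CPM under DMSO and 313, 291, 295 and 287 CPM with SY-351. Against DMSO 3 and 4 both rose (log2 folds 1.35 and 1.27), but DMSO 1 and 2 lay far below the SY-351 values in ATP5MG and far above them in ATP5F1D. With all 8 libraries neither passed, at 2.27 (adjusted p = 0.183, edgeR) and -1.62 (adjusted p = 0.255).

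The c ring, the rotor that protons turn, is built from 1 mature protein encoded by 3 genes. ATP5MC1 measured 0.941, 0.830, 101 and 92.6 CPM under DMSO and 183, 163, 149 and 176 CPM with SY-351. ATP5MC2 measured 3.5, 0.936, 242 and 227 CPM under DMSO and 281, 365, 317 and 307 CPM with SY-351. ATP5MC3 measured 225, 144, 215 and 203 CPM under DMSO and 200.3, 239, 184 and 199 CPM with SY-351. The first 2 genes were above all controls with SY-351 and nearly absent from DMSO 1 and 2, while ATP5MC3 overlapped its controls and was well detected in all 4 of them. Against DMSO 3 and 4 alone the log2 folds were 1.23 (SE 0.17), 0.87 (SE 0.17) and 0.41 (SE 0.16, adjusted p = 0.0255, edgeR), and on total counts 0.79, 0.44 and -0.02, so the sign for ATP5MC3 changed with the scaling. With all libraries none of the 3 passed (adjusted p = 0.256, 0.349 and 0.823, edgeR).

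The medians of catalytic and accessory subunits lay apart in each fit. With DMSO 1 and 2 left out, the 11 catalytic subunits analysed had a median log2 fold of 0.24, with 5 higher and 3 lower. NDUFS1 and NDUFS3 of complex I are also catalytic and were not among them. The 66 tested accessory subunits had a median of 1.02, with 55 higher and 1 lower. Total count scaling gave medians of -0.18 and 0.59, so the sign of the catalytic median changed. It moves both medians by nearly the same amount and so does not test which is higher. Of all genes in the fit without DMSO 1 and 2, 21.9% were higher and 26.4% lower. With all 8 libraries the medians were -0.84 and 1.28, with 0 higher and 2 lower of 11, and 5 higher and 1 lower of 66. Of all genes 2.91% were higher and 13.6% lower there, so 2 lower of 11 (18.2%) is near the share of all genes. All 11 catalytic folds were negative there (9 of 11 on total counts, where ATP5F1A and ATP5F1B were positive). At an unadjusted p below 0.05 in edgeR 4 of them were lower, a share that was not counted for all genes. DESeq2 called 0 higher and 4 lower, where 8.9% of all genes were higher and 24.6% lower. In plain CPM the catalytic subunits summed to 2957 and 2939 CPM for DMSO 3 and 4, against 2807 to 3028 CPM with SY-351, overlapping, and to 3701 and 4210 CPM in DMSO 1 and 2. The accessory subunits summed to 6303 and 6329 CPM for DMSO 3 and 4, 6101 and 6502 CPM for DMSO 1 and 2. The SY-351 libraries had 9094 to 9639 CPM of them, above all 4 controls. Over all 8 libraries every SY-351 value lay above every control in 34 of 66 accessory and 0 of 11 catalytic subunits (11.2% of all genes), and below every control in 3 and 3 (21.4% of all genes). A wider definition of the core, with 19 tested genes, gave a median of 0.49 against 1.04 for the other 58 without DMSO 1 and 2.

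Without DMSO 1 and 2 the fold of members was lower in longer counted intervals. The interval runs from the start to the end of a transcript with its introns. In that fit the 16 members under 5 kb had a median log2 fold of 1.25, the 23 from 5 to 10 kb 1.05, the 24 from 10 to 20 kb 0.81 and the 16 of 20 kb or more 0.27. All genes in the same bins had medians of 0.25, 0.02, -0.06 and 0.01. Spearman's rho between log2 fold and interval length was -0.59 across the 79 members and 0.05 across 15450 genes, as a description, since the points share libraries. With all 8 libraries this order was not seen: the medians of the 4 bins were 0.15, 1.42, 0.82 and 0.95, and rho was -0.06 across the 79 members. With the length of the spliced transcript and without DMSO 1 and 2 rho was -0.26 across members, where the transcript matched to ATP5MC3 and to UQCRHL is longer than the counted interval. The difference between the classes was seen on both sides of 10 kb: catalytic subunits had medians of 0.62 (5 genes) and 0.16 (6 genes) under and over 10 kb, and accessory subunits 1.23 (34 genes) and 0.70 (32 genes). With all libraries these were -0.84 and -0.84, and 1.43 and 1.16. Exceptions were UQCRFS1 (7833 bp), lower, and NDUFA10 (52772 bp) and SDHC (60961 bp), both higher, which were chosen after their values were seen.

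**Figure D4:**
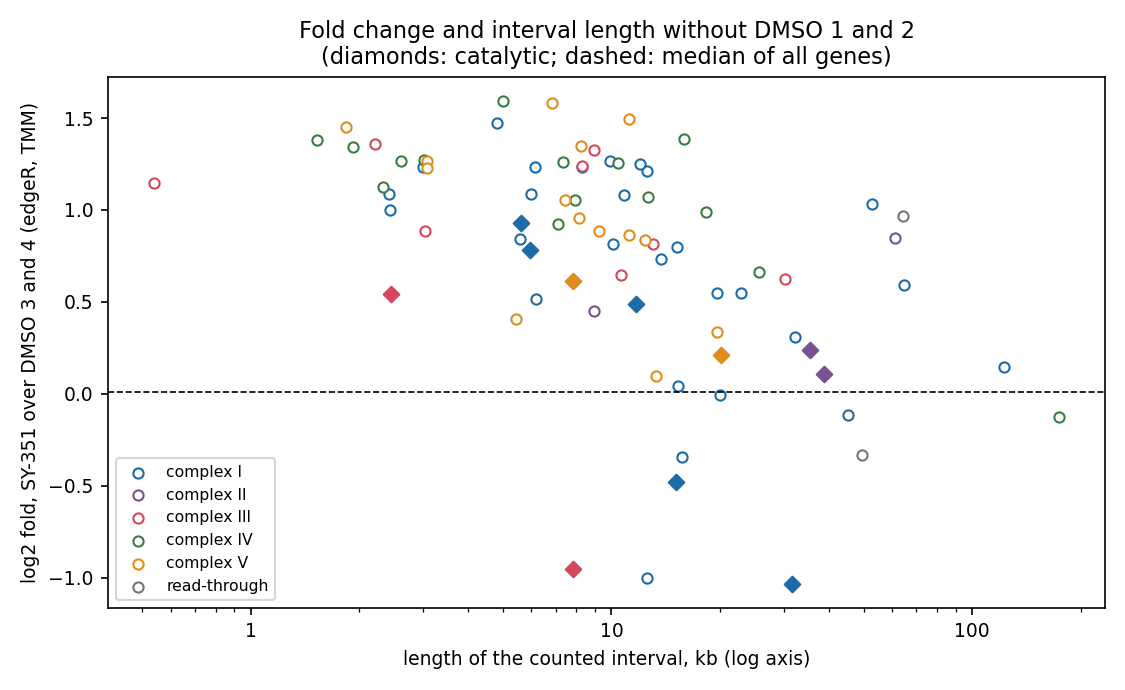
Log2 fold without DMSO 1 and 2 (edgeR with TMM) of each tested member against the length of its counted interval in kb (log axis), coloured by complex, with diamonds for catalytic subunits and a dashed line at the median of all genes. Members under 5 kb all lie above 0.5, and those of 20 kb or more lie between -1.03 and 1.03.

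The split of the controls was wide among the members, and it went along with class and with base composition. The part of either in the results was not tested. DMSO 1 and 2 averaged under 10% of the mean of DMSO 3 and 4 in 32 of 79 tested members (40.5%) and in 20.3% of all genes tested. All 32 were accessory, so 0 of 11 catalytic subunits were among them. By complex they numbered 11 of 32 in complex I, 2 of 4 in complex II, 5 of 10 in complex III, 5 of 15 in complex IV and 9 of 16 in complex V. Transcripts of these 32 had a median GC content of 45.3%, against 53.9% for the other 47 tested members. Across members the log2 ratio of DMSO 1 and 2 to DMSO 3 and 4 had a Spearman's rho of 0.58 with GC content (n = 79), and across all genes 0.60 (n = 15114), as a description. Without DMSO 1 and 2 the 32 members had a median log2 fold of 0.86 and the other 47 a median of 0.97. Against DMSO 1 and 2 as the only controls, 39 members were higher and 32 lower, where 40.8% of all genes were higher and 38.4% lower, and all 11 catalytic subunits were lower.

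**Figure D5:**
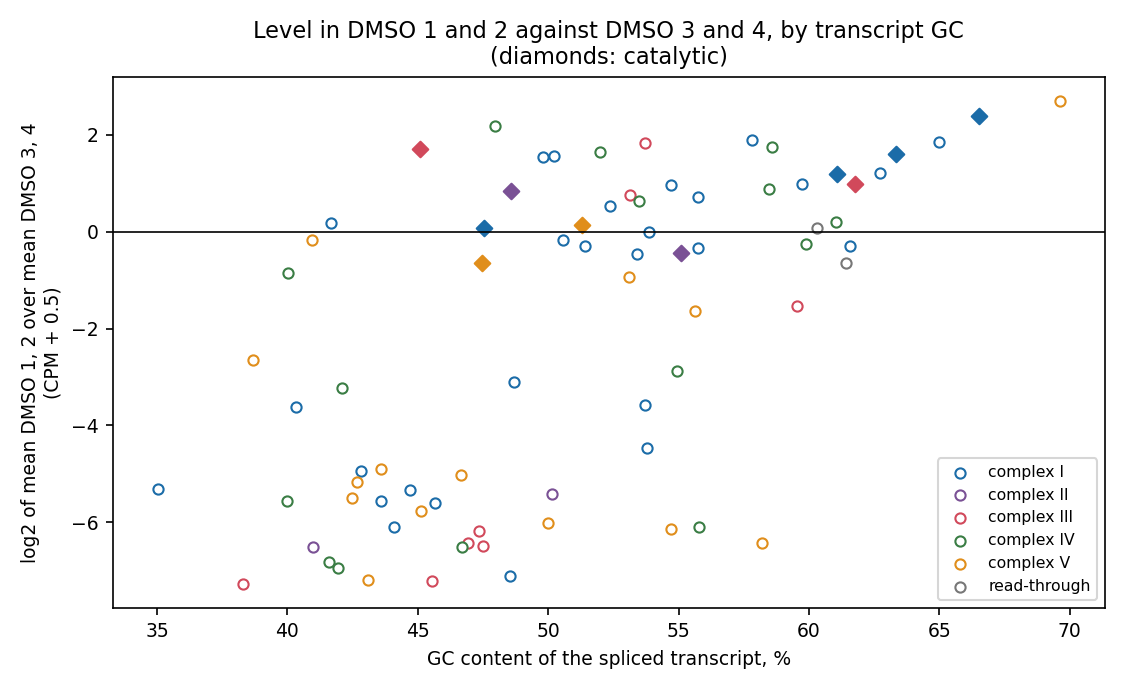
Log2 ratio of the mean of DMSO 1 and 2 to the mean of DMSO 3 and 4 (CPM + 0.5) of 78 tested members against the GC content of its spliced transcript in percent, coloured by complex, with diamonds for catalytic subunits. A group of accessory subunits, most of them under 50% GC, lies below -4, and the catalytic subunits lie between -0.8 and 2.4.

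Splicing was taken from the authors' deposited table of local splicing variations, which compares both conditions without values per sample. Of 3698 genes in the authors' deposited table, 64.2% had a variation past a posterior probability of 0.95 that inclusion differed by at least 0.2. It listed 5 members, of which ATP5PO passed. ATP5PO encodes the OSCP subunit that ties the outer stalk to the head of ATP synthase. The authors' deposited table gives for this gene 1 variation with a retained intron, whose inclusion was 0.823 in control and 0.006 with SY-351. A junction marked as de novo in the same variation went from 0.125 to 0.979 in the authors' deposited table. The count of ATP5PO was 2.37, 1.35, 151 and 155 CPM under DMSO and 199.6, 202, 203 and 213 CPM with SY-351, so it was near 0 in DMSO 1 and 2, and which libraries entered the splicing comparison the labels and headers do not say. The other members in the authors' deposited table did not pass: NDUFV3 (largest probability 0.855), ATP5F1A (0.778), COX7B (0.746) and NDUFC1 (0.351).

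Some members could not be measured. NDUFC2, ATP5MF and ATP5MGL were at 0 in every library, which allows up to 0.0241 to 0.0693 CPM for counting error, and their whole intervals lie inside NDUFC2-KCTD14, ATP5MF-PTCD1 and CYB5R3 on the same strand, rows with which shared reads can be lost. The read-through ATP5MF-PTCD1 measured 79.1, 77.5, 76.8 and 72.3 CPM under DMSO and 47.0, 43.6, 43.5 and 41.6 CPM with SY-351, which edgeR put at a log2 fold of -1.04 (SE 0.35, adjusted p = 0.0820) and -0.33 (adjusted p = 0.0717) without DMSO 1 and 2. All SY-351 values lay below all controls, and this row can hold reads of ATP5MF and of PTCD1. NDUFC2-KCTD14 measured 0.0289 to 0.571 CPM under DMSO and 0.472 to 0.630 CPM with SY-351. The 13 mitochondrially encoded subunits of these complexes were not analysed here.

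Other nuclear genes of the pathway are described by 4 lists, to be read against all genes, of which 2.91% were higher and 13.6% lower with all libraries, and 21.9% higher and 26.4% lower without DMSO 1 and 2. Of 47 tested assembly factors, 1 was higher and 10 lower with all libraries, and 14 higher and 17 lower without DMSO 1 and 2 (median -0.20). COA4 and TMEM70, which help build complexes IV and V, had the smallest p. COA4 measured 50.5, 36.3, 60.7 and 60.2 CPM under DMSO and 14 to 17.2 CPM with SY-351 (log2 fold -1.86, SE 0.29, adjusted p = 0.00707, edgeR). TMEM70 measured 51.1, 61.6, 26.3 and 27.0 CPM under DMSO and 4.04 to 5.61 CPM with SY-351 (-3.49, SE 0.62, adjusted p = 0.0099, edgeR). Both fell below all 4 controls, and without DMSO 1 and 2 their folds were -1.52 and -2.03.

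Of 17 tested regulators of mitochondrial biogenesis, 0 were higher and 3 lower with all libraries, and 1 was higher and 10 lower without DMSO 1 and 2. PPRC1, a coactivator related to PGC-1, measured 100.6, 82.1, 185 and 184 CPM under DMSO and 20.9 to 26.2 CPM with SY-351 (-2.59, SE 0.25, adjusted p = 0.00288, edgeR). GABPB1, the partner of the ETS factor GABPA, measured 71.5, 73.2, 36.5 and 32.5 CPM under DMSO and 13 to 15 CPM with SY-351 (-2.36, SE 0.57, adjusted p = 0.0288, edgeR). In both genes every SY-351 library lay below every control. GABPA itself did not pass (-0.63, adjusted p = 0.305, edgeR, and 0.21, adjusted p = 0.294, without DMSO 1 and 2). Without these controls PPRC1 had -2.55 and GABPB1 -0.90.

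Among 19 genes of the citric acid cycle and pyruvate dehydrogenase, which supply NADH and succinate, 0 were higher and 3 lower, and 6 were higher and 6 lower without DMSO 1 and 2. OGDH measured 75.4, 67.0, 100.7 and 101 CPM under DMSO and 39.9 to 44.2 CPM with SY-351, and DLAT 116, 135, 111 and 113 CPM and 45.8 to 50.9 CPM, both below all controls. Of 17 tested genes for cytochrome c, carriers, channels and ubiquinone synthesis, 0 were higher and 5 lower, and 3 were higher and 10 lower without DMSO 1 and 2. COQ5 and PDSS1, enzymes of ubiquinone synthesis, had the smallest p, with log2 folds of -1.30 (SE 0.26, adjusted p = 0.0142, edgeR) and -1.31 (SE 0.27, adjusted p = 0.0163), and -1.11 and -0.99 without DMSO 1 and 2. At an unadjusted p below 0.05 with all libraries, 0 regulators, 1 citric acid cycle gene and 0 carrier or ubiquinone genes were higher, and 6, 4 and 10 were lower. The share of all genes at that level was not counted, so these counts cannot be set against it.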

How the data were processed

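RNA of HL60 cells (4 DMSO and 4 SY-351 replicates) was extracted with TRIzol and selected for polyA, per the labels' protocols, which name the Illumina TruSeq RNA Library Prep kit. The authors deposited whole-number read counts made with featureCounts 1.6.2 at strand setting 1 over 1 interval per RefSeq transcript, introns included, per the file headers, so unspliced RNA counts too and overlapping rows can lose shared reads. Whether the kit kept strand and how reads with several places were treated, as subunit genes with processed pseudogenes need, is not given in the sources used here. Per the submitters' processing notes, GRCh38 and DESeq2 were used. The splicing values (inclusion as a fraction and a posterior probability as a score) are the authors' deposited comparison, with MAJIQ and Voila column names per the file headers, and it is on another build, so no splicing coordinates are printed.

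Rows were matched to current symbols through a RefSeq table (17867 of 18093) and GENCODE v29 (134), with 92 unmatched and 13 repeats of a symbol set aside. Counts were tested in edgeR 4.0.16 with R 4.3.3 (TMM, filterByExpr, the robust quasi-likelihood fit of glmQLFit, two-sided glmQLFTest, and Benjamini-Hochberg adjustment over all genes tested), with group as the only term. SE is the log2 fold over the square root of F. GC, exons and spliced length are those of the longest matched GENCODE v29 transcript. The test was tried on simulated data. Alternatives were DESeq2 1.42.0, limma-voom (limma 3.58.1), other scalings and filters, a replicate block, leaving out each library and a wider core. Leaving out DMSO 1 and 2 together with total count scaling, DESeq2 size factors or 1 more library was added after seeing the data.

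Members, classes, lists and tests were chosen with earlier results of these data known. Named genes are every catalytic subunit analysed, the highest and lowest fold of each complex, the c ring genes, the isoform pairs of complex IV, members past the threshold over 8 libraries, members past it in splicing, and the 2 genes with the smallest p of each other list. Catalytic means a list of subunits fixed by symbol, which holds most but not all subunits with redox centres or nucleotide sites. Every other subunit counts as accessory. The values of 1 member, which stays in all counts and medians, are not reported here. Other members are named for contrast and were chosen after their values were seen.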

Additional observations from a re-analysis of the deposited data

Results flagged for a closer look

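Among the 39 named members, each tested in both groups of 4 libraries (78 groups), 2 values stood far from the other 3 of their group by Dixon's criterion. Chance gives about 1 in 20 groups, so 2 of 78 are no more than chance gives. COX4I2, the lung form of a complex IV subunit, measured 0.233 CPM in DMSO replicate 3 and 0.0171 to 0.0280 CPM in the other controls. SDHA, the succinate-oxidising subunit, measured 80.6 CPM in SY-351 replicate 4 against 89.2 to 90.9 CPM in replicates 1 to 3.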

How the results depend on the processing

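Over all 8 libraries the 5 higher calls among members became 8 with a filter at a mean of 10 CPM, 11 with DESeq2, 60 with DMSO 1 and 2 left out and 39 with these as the only controls, and 2 to 8 with 1 library left out. The 3 lower calls became 1 with limma-voom, 8 with DESeq2, 32 with DMSO 1 and 2 as the only controls, and 0 to 8 with 1 library left out. Shares of all genes moved too. From 2.91% higher they went to 6.35% with that filter, 8.9% with DESeq2, 21.9% without DMSO 1 and 2 and 40.8% against these alone. From 13.6% lower they went to 10.2% with limma-voom, 24.6% with DESeq2 and 38.4% against DMSO 1 and 2 alone. With 1 library left out they were 0.39 to 12.3% higher and 2.99 to 22.4% lower. With the replicate number as a block (replicate block) edgeR called 0 members and 0 of all 15472 genes in either direction, and 14 members had an unadjusted p below 0.05. How many of all genes did so was not counted. Deviations of same-numbered libraries from their group means had correlations of 0.01, -0.03, 0.01 and -0.12. In the controls these deviations mostly hold the split of DMSO 1 and 2 from 3 and 4. The check therefore cannot say whether the numbers mark pairs. Splicing calls at other posterior probabilities left the same 1 member. The median of all members kept its direction under all 17 alternatives over 8 libraries. The median of complex I was 0.38 on total counts, -0.14 with DESeq2 size factors, 0.79 without DMSO 1 and 2, -0.67 against these alone and -0.15 to 0.49 with 1 library left out, and the cause was not tested. Against DMSO 1 and 2 alone complex II had 2.47 and complex III 3.56, and the catalytic median was -1.67, while it was 0.24 with both left out.

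After DMSO 1 and 2 were left out, total count scaling, which sets the median of all genes to -0.45, gave 14 lower members and medians of 0.46 for all members, 0.36 for complex I, -0.071 for II, 0.43 for III, 0.83 for IV and 0.50 for V, -0.18 for catalytic and 0.59 for accessory subunits. Leaving out 1 more library gave 0.71 to 1.13, 0.59 to 1.04, 0.089 to 0.67, 0.62 to 1.14, 1.03 to 1.48, 0.72 to 1.18, 0.0032 to 0.53 and 0.83 to 1.28 in the same order, each lowest without DMSO 3 and highest without DMSO 4.

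Signs of single members changed as follows. With DMSO 1 and 2 left out, log2 folds that were negative over 8 libraries became 0.21 in ATP5F1A, 0.62 in ATP5F1B, 1.27 in ATP5F1D, 0.41 in ATP5MC3, 0.99 in COX5A, 1.59 in COX6B2, 1.34 in COX8A, 0.54 in CYC1, 0.49 in NDUFS7, 0.78 in NDUFS8, 0.93 in NDUFV1, 0.11 in SDHA and 0.24 in SDHB. Total count scaling gave 0.078 in ATP5F1A, 0.11 in ATP5F1B, 0.065 in ATP5MC3 and 0.0008 in COX6B2. The filter at 10 CPM gave 0.16, 0.093 and 0.087 in the first 3 of these, and no filter 0.0038 in ATP5F1A. COX6B2 had 0.089 with the replicate block and 0.18 with limma-voom. COX6A1 fell from 0.15 to -0.075 with DESeq2 or its size factors, and against DMSO 1 and 2 alone COX6A1 had -0.61 and COX7A1 -0.43. With 1 library left out the ranges were -0.13 to 0.087 in ATP5F1A, -0.32 to 0.14 in ATP5F1B, -0.27 to 0.18 in ATP5MC3, -0.080 to 0.52 in COX6A1, -0.76 to 0.01 in COX6B2 and -0.28 to 0.036 in COX7B2. Totals of 43.3 to 124.2 M counts limit the tissue isoforms, which measured at most about 3 CPM, and COX6A2 had 0 counts in SY-351 replicate 3.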
